A study of Homo sapiens with 6 samples.

Results

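The S100 genes described here are S100A2, S100A4, S100A6, S100A8, S100A9, S100A10, S100A11, S100A14, S100A16 and S100P. They are 10 of the 58302 genes in the RIP-seq expression table and 10 of the 21 S100 genes looked up in it. They were chosen by symbol with measured values of these data in view: S100A2 and S100A9 were selected on the fold of their ac4C peaks, which lie near the top of both peak lists, and the others on their listing in the table. Peak folds, levels and ratios of the members are therefore given as a description, with no test.

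RNA was taken from SW480 and DLD-1, established epithelial cell lines from human colorectal cancer (CRC), both wild type and untreated. Each line gave 1 Input library of total RNA, 1 library of the RNA that a NAT10 antibody pulled down (RIP-seq), and 1 library of RNA fragments pulled down for their N4-acetylcytidine, or ac4C (acRIP-seq). As each group held 1 library, no p-value was computed, and each difference is between 2 libraries. The errors given are standard errors from counting reads only, and reads copied by PCR are not independent molecules.

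S100 proteins are small calcium-binding proteins built from EF-hand motifs, which mostly act as dimers. On binding calcium most of them expose a surface that holds a partner protein, such as an annexin, a myosin or p53, and several are also secreted and bind receptors such as RAGE (AGER) or TLR4. Epithelial cells, squamous epithelia in particular, and myeloid cells are known for high levels of different members. NAT10 is the enzyme that writes ac4C on RNA, so RIP-seq asks which S100 transcripts came down with the enzyme, and acRIP-seq asks which carried fragments caught by the antibody against its product.

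In RefSeq (GRCh38.p14) 9 members lie on chromosome 1 between 151982915 and 153616325, and S100P lies alone on chr4:6693878-6697170. RefSeq genes overlap S100A4 (S100A5 among them), S100A6 and S100A8 (S100A7A among them), and since the use of strand in counting is not given, reads shared with them cannot be told apart. Most ac4C peaks can be given here only by position, but at 2 annotated transcript starts a peak reached into a RefSeq promoter window. The sequence at S100A2 is shown because its peak is among the highest of both lists and the listed motif site spans the annotated start at position 153563887, which lies inside the gene, since RefSeq has another start of S100A2 at its outer end, 153565844. The run at chr1:153563876-153563905 (minus strand) has the 4 spaced Cs of the motif in capitals. The site is listed as 1 position, 153563885, which was read as its last base in the direction of transcription. Read in this way, 45 of 48 listed sites compared on the minus strand matched the motif. The promoter of S100A11 is shown because its peak in the SW480 list began 1 base after the annotated start. The window at chr1:152036975-152037254 (minus strand) has the 29 bases inside the acRIP peak labelled SW480 in capitals, and opens with 250 bases upstream of the start.
S100A2: cacctggcaCctCtgCagCcacagatccat
S100A11: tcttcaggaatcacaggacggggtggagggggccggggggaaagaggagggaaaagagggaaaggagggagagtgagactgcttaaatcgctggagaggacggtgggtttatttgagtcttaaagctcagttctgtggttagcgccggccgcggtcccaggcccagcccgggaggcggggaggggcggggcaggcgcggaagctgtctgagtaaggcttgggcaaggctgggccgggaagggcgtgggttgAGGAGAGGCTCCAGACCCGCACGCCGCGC

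The motif that the authors list in each peak is a run of 12 bases with 4 evenly spaced Cs, CNNCNNCNNCNN. In RefSeq promoter windows it was found in 74.9% of 35116 windows on the transcript strand and in 90.3% on either strand, and in 11 of 14 windows of the members on the transcript strand. A match is thus common, and the one printed for S100A2 is a description of the listed site.

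The libraries did not pair by label. Across 16196 protein-coding genes the RIP library labelled SW480 had a Pearson r of log2(FPKM + 1) of 0.944 with the Input labelled DLD-1 and of 0.871 with the Input labelled SW480. For the RIP library labelled DLD-1 these were 0.951 with the Input labelled SW480 and 0.856 with its own label. The acRIP libraries behaved alike: of 42 genes at least 8-fold apart between the Inputs and with a peak in only 1 list, 5 (11.9%) had it in the library of the label with the higher Input. Which labels are crossed cannot be told apart here. Libraries are therefore named by their label, and every ratio of RIP to Input is given over the Input of both labels. The whole reads solved from the table summed to at least 12126015 in the shallowest and 27393015 in the deepest library of the RIP table.

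Levels are given as FPKM (fragments per kilobase of transcript, scaled to the depth of the library). Each Input has 2 columns, 1 in the RIP table and 1 in a table deposited with the acRIP-seq data (the acRIP table, whose values were read as FPKM). The series lists 1 Input sample per line, so the pair was counted as 1 library here. Whether both columns come from the same reads is not given. Over 16196 protein-coding genes their Pearson r of log2(FPKM + 1) was 0.963 for the label SW480 and 0.957 for DLD-1. S100A6, S100A10, S100A11, S100A14, S100A16 and S100P were abundant in every RIP and Input column. S100A4 was abundant in some, S100A2 was low, and S100A8 and S100A9 were at 0 in every Input column. Together the 10 genes held 0.282% of the FPKM of protein-coding genes in the Input labelled SW480 and 0.291% in the Input labelled DLD-1. In RIP the shares were 0.274% for the label SW480 and 0.438% for DLD-1.

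**Figure D1:**
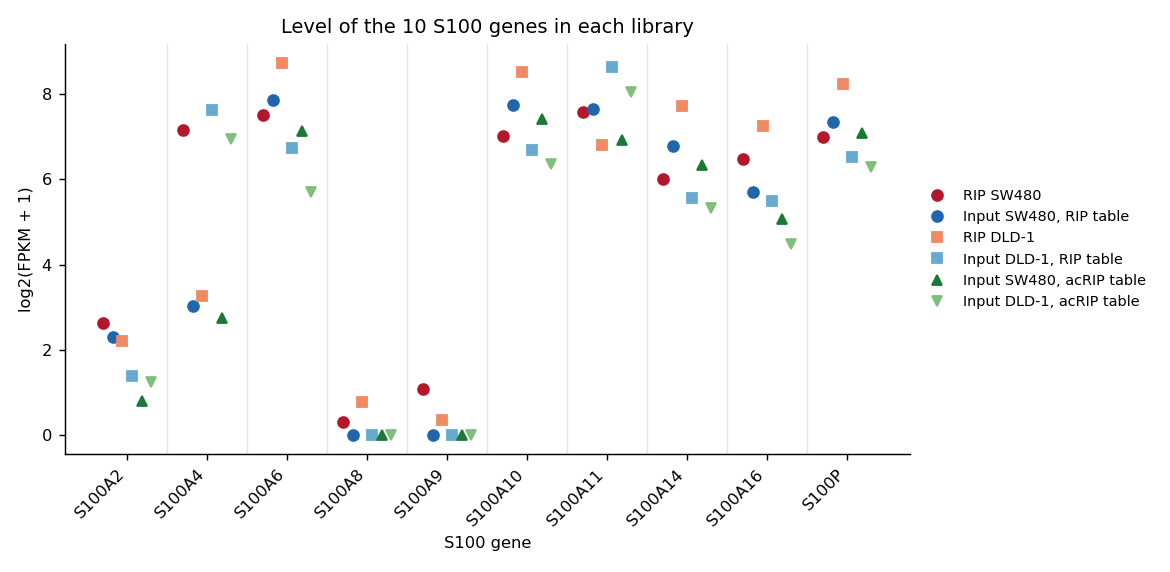
Level of each of the 10 S100 genes as log2(FPKM + 1) in the RIP libraries and in both Input columns of each label, 1 point per library column. S100A8 and S100A9 sit at 0 in all 4 Input columns, S100A4 falls into a high and a low set, and 6 members lie above 20 FPKM in every column.

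The members that bind annexins were among the most abundant. S100A10 (ENSG00000197747), the partner of annexin A2 and an S100 protein that no longer binds calcium, measured 129 FPKM in RIP and 213 in Input labelled SW480, and 367 in RIP and 102 in Input labelled DLD-1. The acRIP table gave 171 and 81.7 for the Inputs labelled SW480 and DLD-1. The RIP library labelled DLD-1 was thus the highest and the Inputs labelled DLD-1 the lowest.

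S100A11 (ENSG00000163191), a partner of annexin A1, went the other way. It measured 191 FPKM in RIP and 200 in Input labelled SW480, against 112 in RIP and 395 in Input labelled DLD-1. The acRIP table gave 121 and 264. In the Input labelled DLD-1 it ranked 48th among 19847 protein-coding genes.

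S100A6 (ENSG00000197956), or calcyclin, binds the adaptor CACYBP. Its level was 182 FPKM in RIP and 231 in Input labelled SW480, 427 in RIP and 106 in Input labelled DLD-1, and 139 and 51.5 in the Inputs of the acRIP table. S100P (ENSG00000163993), which binds and activates ezrin and is known from many carcinomas, had the same order of libraries. It measured 127 FPKM in RIP and 161 in Input labelled SW480, 300 in RIP and 90.8 in Input labelled DLD-1, and 135 and 77.1 in the acRIP table.

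S100A14 and S100A16 are broadly epithelial members. S100A14 (ENSG00000189334) measured 64.0 FPKM in RIP and 110 in Input labelled SW480, 212 in RIP and 46.1 in Input labelled DLD-1, and 80.1 and 39.5 in the acRIP table. S100A16 (ENSG00000188643) measured 88.9 in RIP and 51.3 in Input labelled SW480, 153 in RIP and 44.1 in Input labelled DLD-1, and 32.4 and 21.5 in the acRIP table. S100A16 was the only member above 0 in Input whose 2 RIP libraries both lay above both Inputs of the RIP table.

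S100A4 (ENSG00000196154), or metastasin, binds non-muscle myosin and is known for its link to metastasis. It measured 142 FPKM in RIP and 7.16 in Input labelled SW480, against 8.57 in RIP and 197 in Input labelled DLD-1. The acRIP table gave 5.67 and 122. Its libraries fell into a high set (RIP labelled SW480 and the Inputs labelled DLD-1) and a low set (RIP labelled DLD-1 and the Inputs labelled SW480), with no value between 8.57 and 122.

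S100A2 (ENSG00000196754), a member found in nuclei of squamous epithelia that binds p53, was low. It measured 5.17 FPKM (153 reads) in RIP and 3.98 (58 reads) in Input labelled SW480, and 3.66 (92 reads) in RIP and 1.63 (22 reads) in Input labelled DLD-1. The acRIP table gave 0.754 and 1.36. The order of the 2 Inputs therefore turned between the tables.

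S100A8 (ENSG00000143546) and S100A9 (ENSG00000163220) form calprotectin, an abundant pair in the cytosol of neutrophils. S100A9 measured 1.11 FPKM (19 reads) in RIP labelled SW480 and 0.275 (4 reads) in RIP labelled DLD-1, and S100A8 measured 0.235 (5 reads) and 0.720 (13 reads). Both were listed at 0 in all 4 Input columns. A count of 0 allows up to 3 reads, which is 0.356 FPKM of S100A9 and 0.286 FPKM of S100A8 in the Input labelled SW480. The RIP value of S100A9 labelled SW480 was 3.12-fold the limit in Input labelled SW480 and 2.89-fold that in Input labelled DLD-1. The RIP value of S100A8 labelled DLD-1 was 2.32-fold the limit in Input labelled DLD-1 and 2.51-fold that in Input labelled SW480. The other RIP values of both genes lay under these limits, so no fold is given. The counting error of the 19 and 13 RIP reads is not in these folds, so they are not lower bounds.

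The ac4C peaks came from lists that the authors called per library, 9536 peaks for the label SW480 and 13964 for DLD-1. Members hosted 8 peaks in 7 genes in the first list and 6 peaks in 6 genes in the second. Of the 8 members with an Input of at least 1 FPKM in both lines, 6 hosted a peak in SW480, where 44.2% of all such genes did, and 5 a peak in DLD-1, where 48.8% did. These counts share the contrast on which S100A2 and S100A9 were selected. S100A9, with Input at 0, hosted a peak in both lists as well. S100A8, S100A14 and S100P hosted none in any list, although S100A14 and S100P were abundant in Input.

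S100A9 had the highest listed fold among the members in the library labelled SW480, where fold is the authors' enrichment of acRIP over Input in the peak. Its peak at chr1:153358299-153360998 (plus strand) had a fold of 6710, rank 6 of 9536, and for the label DLD-1 the peak at chr1:153358270-153361027 had a fold of 1230, rank 9 of 13964. The peak of S100A2 at chr1:153561403-153563837 (minus strand) had a fold of 6580 in SW480, rank 7, and the peak at chr1:153561197-153563985 had 2010 in DLD-1, rank 3. The median fold of the lists was 19.5 and 14.6. In the peaks called on the pooled libraries the folds were 7260 for S100A9 and 8050 for S100A2, ranks 4 and 3 of 15622.

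Both of these genes thus combined a peak fold near the top of the lists with an Input level that was low or at 0. The depth of the acRIP libraries and how the fold was formed at an Input of 0 are not given in the sources used here, so the folds carry no error. Of the 4600 protein-coding genes at 0 in all 4 Input columns, 188 (4.09%) hosted a peak in SW480 and 211 (4.59%) in DLD-1. S100A9 had the highest fold of these in SW480 and the second highest, after MAGEA4, in DLD-1.

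S100A6 had the next highest fold in SW480, 1230 at chr1:153534628-153535243 (rank 48), and 90.3 in DLD-1 at chr1:153534628-153535273. S100A10 had the reverse order. Its peaks in SW480 had folds of 30.5 at chr1:151983182-151985204 and 2.55 at chr1:151982974-151983123, and in DLD-1 a single peak over both at chr1:151982974-151985234 had a fold of 381. S100A11 had 91.3 in SW480 at chr1:152032536-152037003 and 20.1 in DLD-1 at chr1:152032536-152036944. S100A16 had 144 at chr1:153606916-153607393 and 82.6 at chr1:153606916-153608150. Folds of 2 libraries of unknown depth were not compared further.

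S100A4 had a peak in the library labelled SW480, with a fold of 635 at chr1:153543672-153544766, and no peak in the DLD-1 list. In the peaks called on the pooled libraries the same interval had a fold of 5.09. The Input labelled SW480 held 7.16 FPKM of S100A4 and that labelled DLD-1 held 197, so this peak stood in the library of the label with the lower Input. It is 1 of the genes behind the acRIP counts on labels given above. The interval also touches the S100A5 locus in RefSeq, a gene at 0.0964 and 0 FPKM in the Inputs of the RIP table labelled SW480 and DLD-1 and at 0.463 and 0 in those of the acRIP table.

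**Figure D2:**
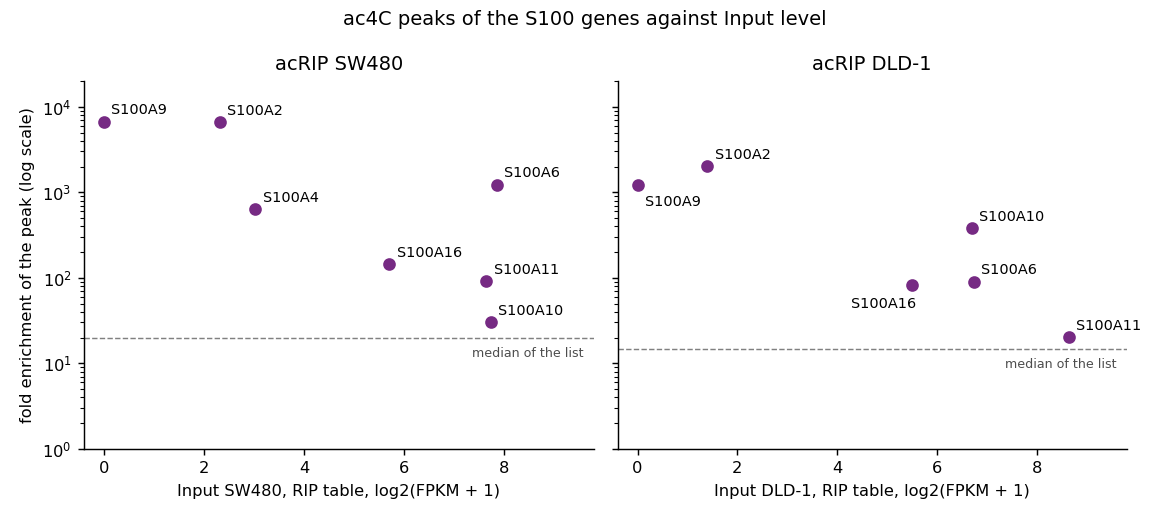
Listed fold enrichment of the highest ac4C peak of each member (log axis) against its Input level of the same label as log2(FPKM + 1), in the lists of the acRIP libraries labelled SW480 and DLD-1, with the median fold of the list as a dashed line. S100A9 at an Input of 0 and S100A2 lie at 6710 and 6580 in SW480 and at 1230 and 2010 in DLD-1, and S100A11 lies closest to the median in DLD-1 at 20.1.

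By position 7 of the 8 SW480 peaks overlapped a DLD-1 peak by at least 1 base on the same strand, all but that of S100A4, and 6 did so over at least 50% of each peak. For S100A2, S100A6, S100A9 and S100A11 the blocks of the 2 lists ended at the same inner bases, and the lists differed in how far the outer blocks ran. In S100A10 the block nearest the far end was unbroken in DLD-1 and split between 2 peaks in SW480. Spliced peaks, made of 2 or 3 blocks, were 6 of 8 in SW480 and 6 of 6 in DLD-1, against 27.9% and 41.1% of the lists.

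In the SW480 list the authors placed the peaks of S100A2, S100A6, S100A9, S100A11 and the higher one of S100A10 in coding sequence, those of S100A16 and the lower one of S100A10 in the UTR after it, and that of S100A4 in an exon. In the DLD-1 list S100A6 and S100A11 stayed in coding sequence, whereas the longer S100A2 peak was placed in that UTR and S100A9 in an exon. The blocks of S100A9 ran from 445 to 579 and from 2790 to 3144 bases after the gene start in SW480, in a gene of 3170 bases. Those of S100A6 ran from 748 to 898 and from 1161 to 1363, in a gene of 1393 bases. In S100A11 the blocks reached both ends of the gene, with the first at 1 to 91 bases after the start in SW480 and at 60 to 91 in DLD-1. The capitals in its promoter window are the part of the SW480 block that the window holds, and the DLD-1 block lies beyond it. In S100A10 and S100A16 all blocks of both lists lay towards the far end, from 8625 bases on in a gene of 10945 and from 4987 bases on in a gene of 6255.

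**Figure D3:**
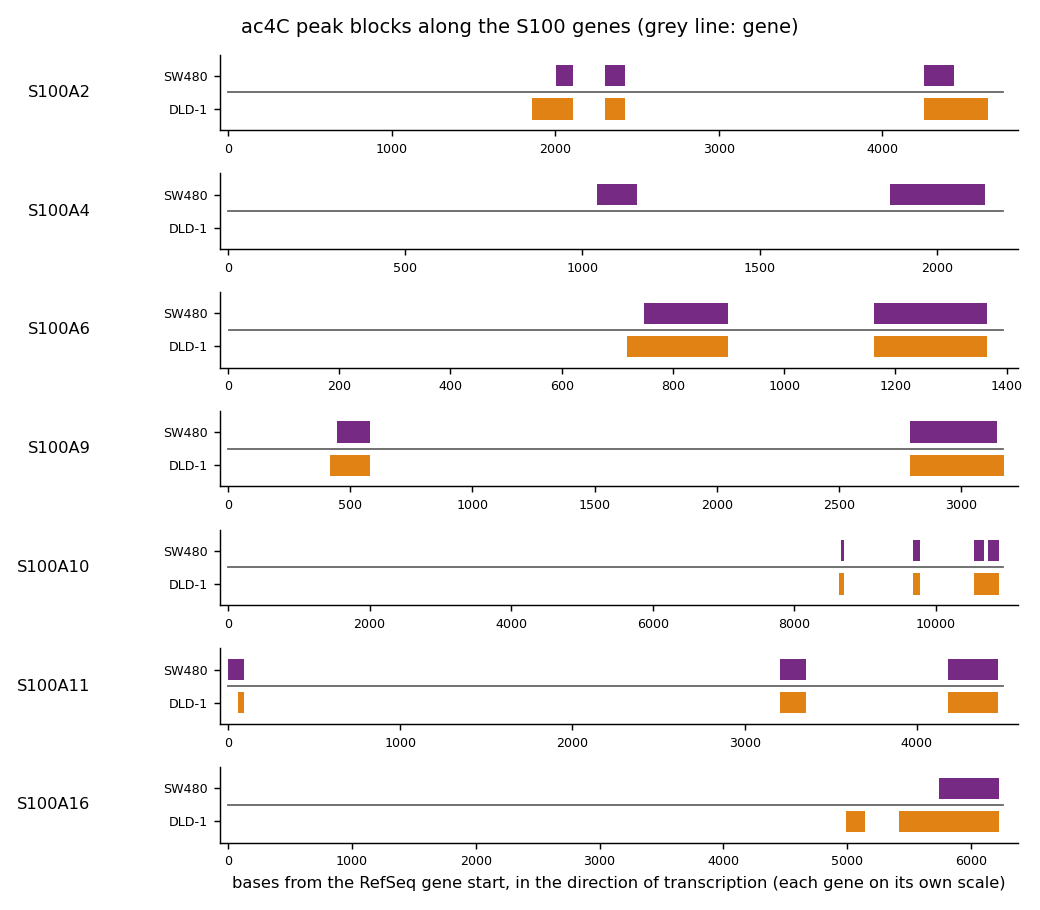
Blocks of the ac4C peaks along the 7 members that host one, in bases from the RefSeq gene start in the direction of transcription, with the SW480 list above the gene line and the DLD-1 list below it. The blocks of both lists overlap in 6 genes, and S100A4 has blocks in SW480 alone.

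The motif was listed in 6 of 8 member peaks in SW480 and in 6 of 6 in DLD-1, against 56.2% and 55.1% of all peaks. All member peaks but the lower one of S100A10 in SW480 were longer than the list medians of 210 and 211 bases. Per 100 bases, member peaks held 0.581 listed sites in SW480 and 0.655 in DLD-1, against 0.513 and 0.464 in all peaks. Whether the members differ from other peaks in this was not tested. S100A9 had 4 listed sites in each list, all 4 at the same positions. S100A16 had 4 in SW480 and 12 in DLD-1, with 1 position in common, and 3 of the SW480 sites lay inside the DLD-1 peak without being listed there. S100A2 had none in SW480 and 1 in DLD-1, the site printed above, which lies outside the shorter SW480 peak. Listed sites differed between the lists in S100A2, S100A10, S100A11 and S100A16, and were the same in S100A6 and S100A9. Not all of these differences follow the peak bounds. The SW480 site of S100A10 and 2 SW480 sites of S100A11 also lay inside the DLD-1 peak without being listed there. The reverse held for 1 DLD-1 site of S100A11 and 2 of S100A16.

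Whether S100 transcripts came down with NAT10 was asked with log2((RIP FPKM + 1) / (Input FPKM + 1)), called at a 2-fold ratio. None of the libraries is a pull-down with a control antibody. Binding to NAT10 and RNA that comes down unspecifically therefore cannot be told apart by this ratio. Of the 12324 genes with an Input of at least 1 FPKM in both lines, 8 were members. S100A8 and S100A9 did not pass this limit. Over the Input of the same label S100A4 was the 1 member higher in RIP labelled SW480, against a background of 15.6% of all genes, and 0 members were lower, against 16%. In RIP labelled DLD-1, 5 members (S100A6, S100A10, S100A14, S100A16 and S100P) were higher, against 15.1%, and 2 (S100A4 and S100A11) were lower, against 19.2%. The median log2 ratio of the members was -0.20 in SW480 and 1.74 in DLD-1, against 0.05 and -0.05 over all 12324.

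With the Input labels exchanged most of these calls were gone. In RIP labelled SW480, S100A2 was the 1 member called higher (background 9.24%) and S100A11 the 1 called lower (11.7%). In RIP labelled DLD-1, S100A16 was the 1 member called higher (9.36%) and 0 were called lower (11.8%). The median log2 ratio of the members was 0.47 and 0.83, against 0.017 and -0.0041 for all 12324.

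S100A16 had the steadiest ratio to Input. It was 0.78 ± 0.05 (SE) over the Input of the same label and 0.996 ± 0.06 over the other in RIP labelled SW480. In RIP labelled DLD-1 it was 1.77 ± 0.06 and 1.55 ± 0.05. All 4 values lay above 0 by more than their counting error, and the linear ratios ran from 1.73 to 3.46.

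S100A4 had the ratio that moved most with the Input used. In RIP labelled SW480 it was 4.13 ± 0.14 over the Input of the same label, a linear ratio of 19.9, and -0.47 ± 0.04 over the other. In RIP labelled DLD-1 it was -4.37 ± 0.11, a linear ratio of 0.0436, and 0.23 ± 0.17. With the labels exchanged both values lay within 2-fold.

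S100A6, S100A10, S100A14 and S100P shared a pattern. Over the Input of the same label they lay between -0.77 (S100A14) and -0.34 (S100P) in RIP labelled SW480, and between 1.71 (S100P) and 2.18 (S100A14) in RIP labelled DLD-1. Exchanging the Inputs put them between 0.33 (S100A10) and 0.78 (S100A6) in RIP labelled SW480, and between 0.78 (S100A10) and 0.94 (S100A14) in RIP labelled DLD-1. The 8 values over the other label were all above 0 and all under 2-fold, with counting errors of at most 0.06. With the scaled acRIP-table Inputs, also exchanged, S100A6 was past 2-fold in both, at 1.20 and 1.06, and the other 3 were not.

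S100A11 was the member lower in RIP under every pairing, by little in 1 of them. Its log2 ratio was -0.07 ± 0.04 over the same label and -1.05 ± 0.04 over the other in RIP labelled SW480, and -1.81 ± 0.04 and -0.83 ± 0.05 in RIP labelled DLD-1. Over the scaled acRIP-table Input of the same label the first of these was 0.10. S100A2 was at 0.31 ± 0.18 and 1.23 ± 0.21 in RIP labelled SW480, and at 0.82 ± 0.22 and -0.09 ± 0.19 in RIP labelled DLD-1. For S100A2 the counting error was a large part of 2 of these 4 values.

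**Figure D4:**
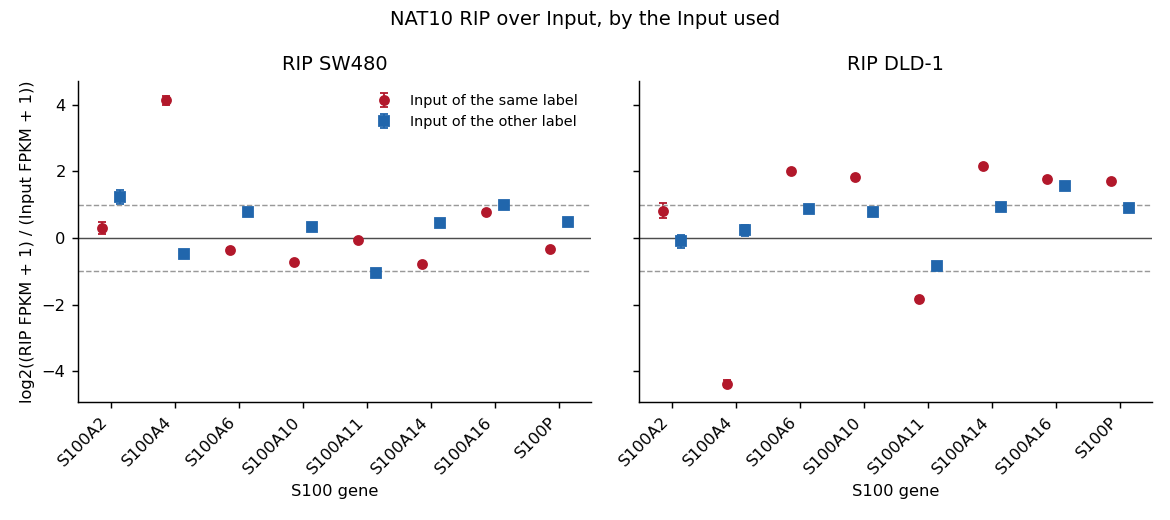
log2((RIP FPKM + 1) / (Input FPKM + 1)) of the 8 members with Input of at least 1 FPKM in both lines, over the Input of the same label (red circles) and of the other label (blue squares), with counting standard errors as bars and dashed lines at 2-fold. S100A4 moves from 4.13 to -0.47 and from -4.37 to 0.23 when the Input is exchanged, and S100A16 stays above 0 in all 4 cases.

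How the lines differed was asked in the Inputs and in the RIP libraries apart, which share no library. Between the Inputs S100A6, S100A10 and S100A14 were at least 2-fold higher in the library labelled SW480, against a background of 13.1%, and S100A4 was at least 2-fold lower, against 18.5%. Between the RIP libraries S100A4 was higher in that labelled SW480, against 12.8%, and S100A6, S100A10, S100A14 and S100P were lower, against 8.69%. The medians of the 8 members were 0.87 and -0.9995, against -0.07 and 0.06 over all genes tested.

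The order of the 2 labels was opposite in Input and in RIP for 7 of the 8 members, all but S100A2. Among all genes tested the share was 76.3%, so the members did as most genes did. S100A4 was at -4.60 ± 0.15 between the Inputs and at 3.90 ± 0.10 between the RIP libraries. S100A14 was at 1.24 ± 0.06 and -1.71 ± 0.03, and S100A10 at 1.05 ± 0.04 and -1.51 ± 0.03. S100A11 had the signs of S100A4 at a smaller size, with -0.98 ± 0.04 and 0.77 ± 0.04.

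For 7 of the 8 members the Inputs of the acRIP table differed in the same direction as those of the RIP table. S100A4 was at -4.20 ± 0.16 and S100A6 at 1.42 ± 0.07 there. S100A2 was the exception, with 0.92 ± 0.24 in the RIP table and -0.43 ± 0.24 in the acRIP table, on 58, 22, 13 and 23 reads.

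**Figure D5:**
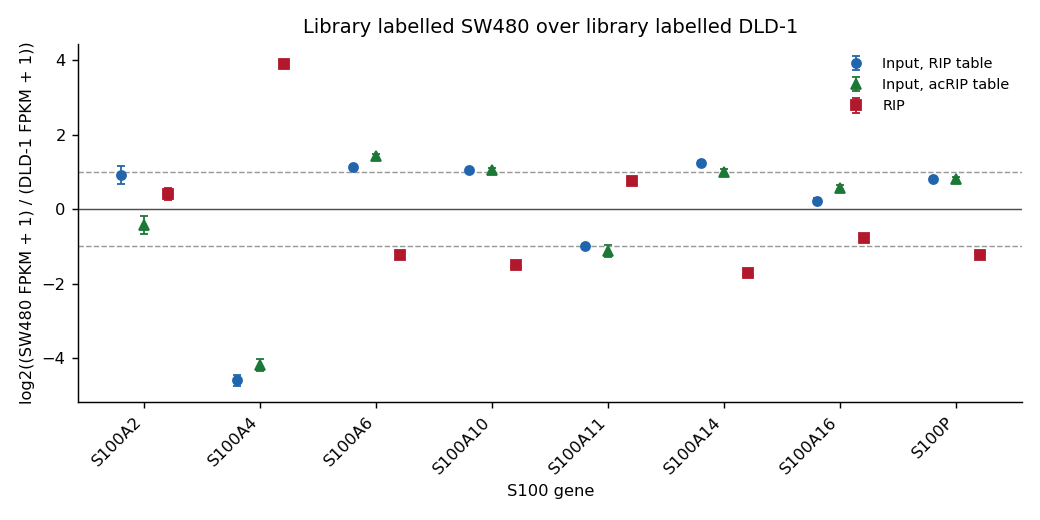
log2((SW480 FPKM + 1) / (DLD-1 FPKM + 1)) of the 8 members between the Inputs of the RIP table, the Inputs of the acRIP table and the RIP libraries, with counting standard errors as bars and dashed lines at 2-fold. Input and RIP lie on opposite sides of 0 for all members but S100A2, and S100A4 is farthest apart at -4.60 and 3.90.

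The other 11 S100 genes of the table were mostly silent. At 0 in all 6 columns were 5 of them, and 4 exceeded 1 FPKM in any column. S100A3, a neighbour of S100A4 best known from hair cuticle, measured 25.4 FPKM in RIP and 0 in Input labelled SW480, and 0.649 in RIP and 38.0 in Input labelled DLD-1. These were the libraries in which S100A4 was high and low. S100A7 (psoriasin) reached 3.45 FPKM in the acRIP-table Input labelled DLD-1, and S100A5 reached 1.14 in RIP labelled SW480. S100A13, which takes part in the release of FGF1, lay between 1.58 and 8.59 FPKM in all columns, and was the only one of the 11 with ac4C peaks, with folds up to 123 in SW480 and 3.50 in DLD-1. It alone of the 11 passed the Input limit, and it was lower in RIP under every pairing, as S100A11 was. Its log2 ratio was -0.70 over the same label and -1.11 over the other in RIP labelled SW480. In RIP labelled DLD-1 the ratio was -1.49 and -1.09.

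Of 16 partners and receptors of S100 proteins, 14 passed the Input limit. Over the Input of the same label 2 were higher and 3 lower in RIP labelled SW480 (background 15.6% and 16%), and 1 was higher and 3 lower in RIP labelled DLD-1 (15.1% and 19.2%). With the Input labels exchanged the counts were 0 and 1 (9.24% and 11.7%), and 0 and 0 (9.36% and 11.8%). ANXA2, the partner of S100A10, measured 247 FPKM in RIP and 162 in Input labelled SW480, and 233 and 197 in those labelled DLD-1. CACYBP, the partner of S100A6, measured 19.5, 33.4, 35.1 and 16.1 in the same order, and EZR, the partner of S100P, 107, 258, 207 and 119. CACYBP was ordered over the 4 libraries as S100A6 was, whereas EZR was highest in the Input labelled SW480 and not in RIP labelled DLD-1, where S100P was highest.

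The receptors differed in level. BSG (basigin), a receptor of S100A9, lay between 169 and 207 FPKM in the RIP table. AGER lay between 0.866 and 3.80 FPKM, and TLR4 was at 0 in 2 of the 4 columns and at 0.968 or less in the others. ANXA1 lay between 78.4 and 137 FPKM, MYH9 between 108 and 204, and IQGAP1 between 42.1 and 56.5 in the RIP table. Of the 14 partners and receptors past the Input limit, 11 hosted a peak in SW480 and 9 in DLD-1, where 44.2% and 48.8% of all such genes hosted one. Those that did not pass it hosted none. NAT10 itself measured 20.8 FPKM in RIP and 21.2 in Input labelled SW480, and 14.3 and 23.0 in those labelled DLD-1.

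Markers of the labelled cell type and of other cells that make S100 proteins were read beside these values. Of 12 colorectal epithelial markers all were above 0 in the Input labelled SW480, and CDX1, CEACAM5 and PHGR1 were at 0 in that labelled DLD-1. Their summed level was between 915 and 3377 FPKM in the Inputs, and the list was uneven. At least 1 FPKM was reached by 9 of the 12 in the Input labelled SW480 and by 7 in that labelled DLD-1. In the Input labelled SW480 KRT8, KRT18, KRT19 and EPCAM measured 1642, 700, 534 and 324 FPKM. CDX1, PHGR1, LGALS4 and VIL1 measured 0.623, 0.719, 0.936 and 1.13 there. KRT20 measured 29.2 there and 0.0426 in the Input labelled DLD-1. The 16 markers of stratified squamous epithelium, in which S100A2 is known, summed to between 9.88 and 135 FPKM in the Inputs. KRT5 was at 0.270 FPKM in the Input labelled SW480 and at 114 in that labelled DLD-1. In all 4 Input columns 7 of the 16 were at 0. Of these, SPRR3 measured 1.06 and 1.41 FPKM in RIP labelled SW480 and DLD-1, CRNN 0.515 and 0.543, and SPRR2A 0.238 and 0.616. KRT14 and KRT1 were at 0.119 FPKM or less in RIP, and SPRR1B and DSG3 were at 0 there too. S100A8 and S100A9 were likewise at 0 in Input and above 0 in RIP. KRT13 of this list had a fold of 13100 in the SW480 list and of 2950 in the DLD-1 list, above S100A2 in both, at an Input of 2.62 FPKM or less. The 12 markers of neutrophils and monocytes, the main source of S100A8 and S100A9, summed to between 0.142 and 1.88 FPKM in the Inputs and to between 0.735 and 1.98 in RIP. Of these 7 were at 0 in all 4 Input columns, MPO, ELANE, FCGR3B and S100A12 were at 0 in RIP too, and 0 of the 12 hosted a peak. The 6 fibroblast markers summed to between 0.562 and 2.21 FPKM in the Inputs, and 3 of them hosted a peak in SW480. In bulk RNA, fewer cells of a type and less RNA per cell cannot be told apart. The part of these cells in the values of the members was not tested.

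The 3 members with the widest range over the 6 columns were S100A4 (4.89 on the log2 scale), S100A6 (3.03) and S100A16 (2.77). By the smallest Euclidean distance over these 6 values of log2(FPKM + 1), the protein-coding genes most like S100A4 were CRABP2, at a distance of 1.52, and HIST1H2AE, at 1.56. Those most like S100A6 were HIST1H2BD at 0.73 and TUBB4B at 0.90, and the one most like S100A16 was C6orf48 at 0.35. The 6 columns include both columns of each Input and are not independent.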

How the data were processed

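For RIP-seq the authors deposited FPKM values per Ensembl gene for the RIP and Input libraries, and ratios of RIP to Input, which are their own comparison and were not used. A table that came with the acRIP-seq data also has an Input column for each line. For acRIP-seq the authors deposited peak lists per library and pooled, with a p-value, log10 scores of p and FDR, a fold enrichment and motif sites. The submitters' processing notes name cutadapt 2.5, HISAT2 2.1.0 and GRCh38. The counting tool, its use of strand and the peak caller are not given in the sources used here. Listed peak starts were moved by 1 base.

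Python 3.11.15 with pandas 2.3.3 and numpy 2.4.6 was used. Ratios had a pseudocount of 1, which understates the change of low genes. Whole reads were solved from the steps of the FPKM values for 23513 of 23515 genes above 0 in at least 2 columns, and tested on simulated data. They are the smallest whole numbers that fit, so the error of counting the reads themselves is at most that given. Reads copied by PCR and the spread between libraries are not in it, so the full error can be larger. Groups came from the sample titles. The members and lists were chosen with earlier results of these data known; all 10 members are named, other S100 genes when above 1 FPKM or with a peak, partners and markers by fixed lists. Alternatives were the pseudocount, Input, centring, filter, fold, peak list and overlap. One gene that the rule on likeness names is not reported here.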

Additional observations from a re-analysis of the deposited data

Results flagged for a closer look

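RIP over Input lay on opposite sides of 0 in the 2 lines for 5 members, on the log2(FPKM + 1) scale over the Input of the same label. The value in SW480 minus that in DLD-1 was 8.50 for S100A4, -2.35 for S100A6, -2.56 for S100A10, -2.95 for S100A14 and -2.05 for S100P. Over the Input of the other label S100A4 was at -0.47 in SW480 and 0.23 in DLD-1, and the other 4 members lay between 0.33 and 0.94, above 0 in both lines. With 1 library per group the differences were not tested.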

How the results depend on the processing

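No paired analysis was possible because each group holds 1 library and the labels give no replicate numbers. For the same reason no library could be left out. Counts of members called at 2-fold depended on the Input. In SW480 the count higher in RIP went from 1 to 2 over the scaled acRIP-table Input of the same label, to 3 over that of the other label, to 2 with no filter on low values and to 2 at 1.5-fold. The count lower went from 0 to 1 with the other label's Input of either table and to 2 at 1.5-fold. In DLD-1 the count higher went from 5 to 1 with the other label's Input of the RIP table and to 3 with that of the acRIP table, and the count lower from 2 to 0 with both. Between the Inputs the counts higher and lower in SW480 went from 3 and 1 to 5 and 2 at 1.5-fold, and the lower count to 2 with the acRIP table. Between the RIP libraries the count higher in SW480 went from 1 to 2 at 1.5-fold. The log2 ratio of S100A4 reversed over the Input of the other label, to -0.47 in SW480 and 0.23 in DLD-1, and over that of the acRIP table, to -0.38 and 0.035. Over the other label's Input of the RIP table, further ratios changed sign. In SW480 those of S100A6, S100A10, S100A14 and S100P went from -0.35, -0.72, -0.77 and -0.34 to 0.78, 0.33, 0.46 and 0.48. In DLD-1 that of S100A2 went from 0.82 to -0.09. The causes were not tested. The other 41 recomputed counts stayed within 1.5 times the values reported. S100A2, S100A8 and S100A9 rest on few reads, and the depth of the acRIP libraries is unknown.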
